A study of Mus musculus with 4 samples.

Results

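The integrated stress response genes described here were Atf4 and 9 genes known as its targets, namely Ddit3, Trib3, Asns, Chac1, Psat1, Phgdh, Sesn2, Ddit4 and Slc7a11. They were taken by name, and all 10 were found among the 24421 genes of the count table. The count minimum, at least 10 reads in at least 1 library, kept 14393 genes and 9 of the 10. Slc7a11 was the member left out, and the 9 kept members had at least 13 reads in every library, so none was kept through a single high group.

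The transcripts of Ddx6 knockout (KO) and wild-type (WT) whole embryos, all of the ICR strain, were compared by RNA-seq. There was 1 library of wild-type embryos at embryonic day 7.5 (E7.5 WT), 1 of wild-type embryos at embryonic day 8.5 (E8.5 WT) and 2 of Ddx6 -/- embryos at embryonic day 8.5 (KO1 and KO2). The null allele lacks exon 5 of Ddx6, which encodes an RNA helicase of P-bodies, and came from a floxed line crossed to a CAG-Cre deleter, so that the loss was not limited to a tissue. According to the study, both KO libraries were pools, KO1 of an embryo without and an embryo with head folds, and KO2 of embryos without head folds only. Stage and pool therefore cannot be told apart between KO1 and KO2, nor can genotype, stage and pool between KO and WT. The KO group was compared with a WT group of the same age and with a WT group a day younger.

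The integrated stress response begins with kinases that phosphorylate the translation factor eIF2 when amino acids, heme or the folding capacity of the endoplasmic reticulum run short, or when double-stranded RNA is present. General translation then falls, while translation of the Atf4 mRNA rises through its upstream open reading frames, so the mRNA level of Atf4 is only part of its control. The ATF4 protein, a basic leucine zipper factor, pairs with C/EBP family proteins and switches on genes of amino acid synthesis and import, of redox balance and of growth arrest. Several of these genes are also under other control, for example hypoxia and glucocorticoids for Ddit4 and p53 for Sesn2. In growing embryonic tissue, serine made through Phgdh and Psat1 feeds protein and nucleotide synthesis.

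The site through which ATF4 and C/EBP pairs act has a core that was searched here as TGATGNAA on both strands. RefSeq windows from 250 bases before to 50 bases after the start were present for all 10 members, in 11 windows on GRCm38.p6. The start is that of a RefSeq transcript. The gene positions given further below are GENCODE spans, whose ends can differ from it. The core occurred in 4 members, Chac1, Trib3, Slc7a11 and Asns, and in 3.97% of all 32851 windows. The stretches upstream of the start in 3 of them are shown because these genes carry the letters of the response element and did not share a pattern across the libraries: Asns was above E8.5 WT in both KO libraries, Chac1 did not differ beyond counting error and Slc7a11 was near the count floor. Capitals mark the core or its reverse complement, and each stretch is written along the strand of its gene.
Chac1 (chr2:119351019-119351086, plus strand): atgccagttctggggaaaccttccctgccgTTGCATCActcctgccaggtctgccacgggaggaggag
Slc7a11 (chr3:50443623-50443709, minus strand): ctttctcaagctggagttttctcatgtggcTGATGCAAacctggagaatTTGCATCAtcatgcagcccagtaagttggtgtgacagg
Asns (chr6:7693210-7693262, minus strand): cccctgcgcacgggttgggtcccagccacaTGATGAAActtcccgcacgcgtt
In Trib3 the match began at base 15 counted from the RefSeq start. It lies at 152344039 to 152344046, which is upstream of the GENCODE span of Trib3. That span ends at 152344032 on the minus strand. The Asns match, at 7693225 to 7693232, lies upstream of the RefSeq start. It lies inside the GENCODE span of Asns, which reaches 7693254 on the minus strand. A match describes letters only, and the absence of one in the other 6 members says only that these letters are not in the window.

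The libraries held 8198402 to 12562640 counts, with KO1 the shallowest, and 16511 to 17112 genes with at least 1 count. Levels are given as CPM (counts scaled to the library total after TMM normalization), with E7.5 WT before E8.5 WT and KO1 before KO2 in each pair of values. Ddx6 was measured at 247 and 465 CPM in the WT libraries and at 84.1 and 76.2 in the KO libraries. Both libraries labelled KO were thus the lowest for the targeted gene, with 706 and 929 reads left of a transcript whose other exons remain in the allele.

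Levels differed greatly among the members, as the plot of levels by library shows. Per kilobase of annotated exon, E8.5 WT held 65.5 RPKM of Atf4 and the same of Phgdh, 64.8 of Psat1 and 44.0 of Ddit4. Asns followed at 23.1 RPKM and Sesn2 at 8.69. Trib3 stood at 1.19 RPKM, Chac1 at 0.99 and Ddit3 at 0.95. The genes of amino acid synthesis and Atf4 itself were therefore abundant in normal embryos, while Ddit3, Trib3 and Chac1 were expressed at a low level. The spread over the 4 libraries was narrowest for Atf4, at 0.24 from lowest to highest on the log2 CPM scale, and widest for Trib3 and Ddit3, at 1.42 and 1.38.

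**Figure D1:**
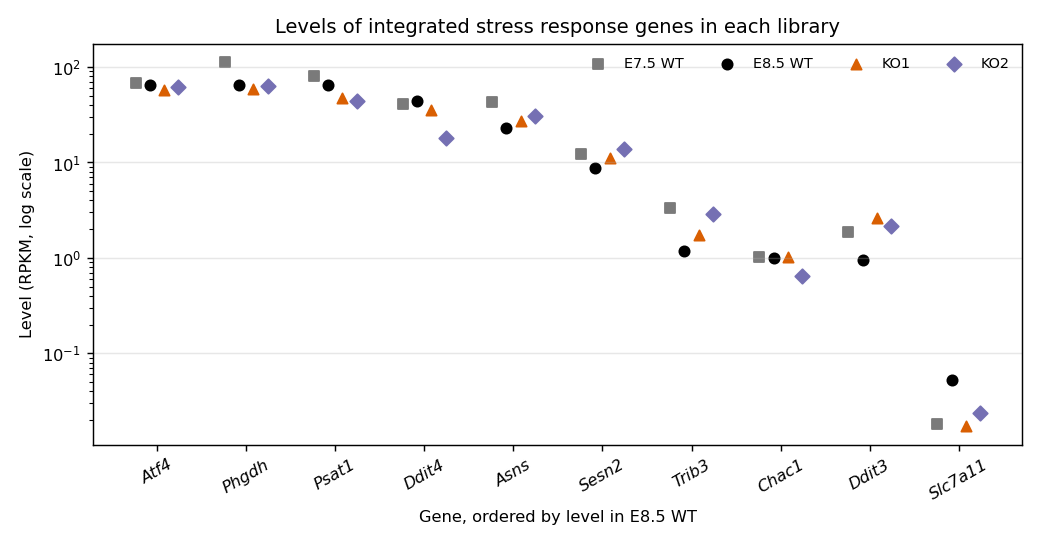
Level of each gene in RPKM on a log scale, with 1 point per library (squares E7.5 WT, circles E8.5 WT, triangles KO1, diamonds KO2). Atf4 stays between 57.3 and 67.6 RPKM in the 4 libraries, while Ddit4 is at 18.1 RPKM in KO2 against 44.0 in E8.5 WT.

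The first question was whether the response was higher in KO embryos than in WT embryos of the same age. Only Ddit3 was higher by more than 1 on the log2 CPM scale in both KO libraries against E8.5 WT, and no member was lower by that much in both. This was 1 of 9 members, where 3.44% of all genes kept were higher and 1.79% lower. Past 1 in either direction, KO1 had Ddit3 alone among the members (8.28% of all genes), and KO2 had Ddit3, Trib3 and Ddit4 (15.3% of all genes). KO1 had a median log2 change over the 9 members of 0.031 and KO2 one of -0.035. Their mean was -0.0016 ± 0.047 (SD, n = 2), and it was 0.055 under plain CPM without TMM. Over all genes kept the medians were -0.0083 and -0.0013. The members' median thus lay near that of all genes, with single members on either side of it.

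**Figure D2:**
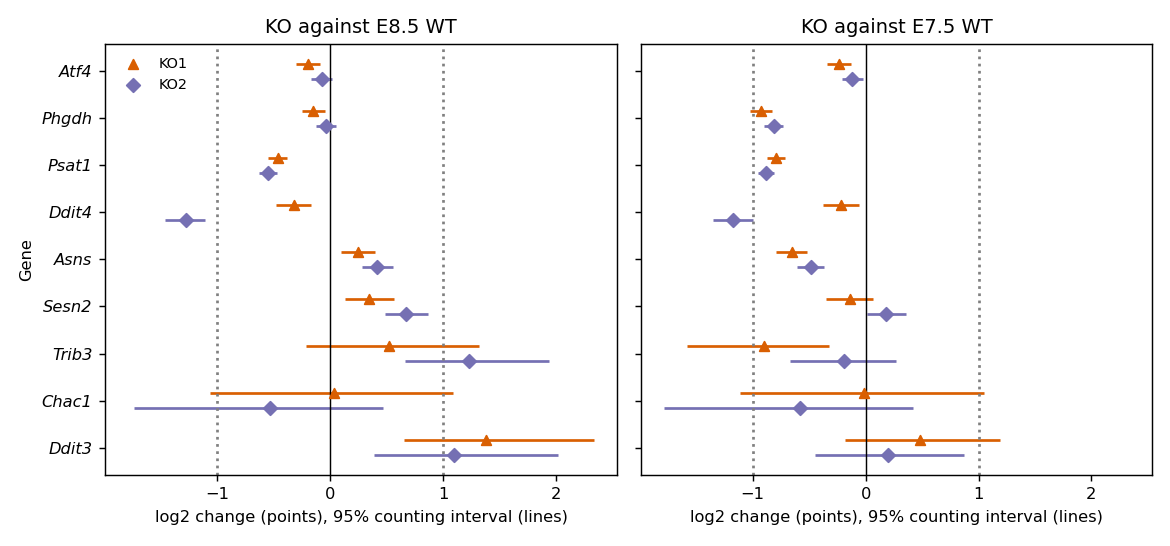
Log2 change of the 9 kept members in KO1 (triangles) and KO2 (diamonds) against E8.5 WT on the left and E7.5 WT on the right, with 95% counting intervals as lines and dotted lines at 1 and -1. Ddit3 is past 1 in both KO libraries on the left, at 1.38 and 1.10, and Phgdh and Psat1 lie between -0.79 and -0.93 on the right.

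Atf4, on chromosome 15 (80255184 to 80257541, plus strand), encodes the central transcription factor of the response. It was measured at 159 and 155 CPM in the WT libraries and at 135 and 147 in the KO libraries, from at least 1135 reads each. Both KO libraries were below both WT libraries, by small amounts. KO1 had a log2 change of -0.19 against E8.5 WT (95% counting interval -0.30 to -0.09) and KO2 one of -0.07 (-0.17 to 0.02), so that only the first exceeded counting error. Counting intervals here are exact Clopper-Pearson intervals of the split of reads between a pair of libraries, and they leave out the variation between embryos. E7.5 WT and E8.5 WT, and E8.5 WT and KO2, were neighbours in this order that did not differ beyond counting error.

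Ddit3, on chromosome 10 (127290774 to 127296288, plus strand), encodes CHOP, a factor of the C/EBP family that is known to promote cell death under lasting stress. Its reads numbered 38 and 20 in the WT libraries and 38 and 45 in the KO libraries, or 3.19, 1.63, 4.53 and 3.69 CPM. The KO libraries were the highest and E8.5 WT was the lowest. KO1 held 2.78 and KO2 2.27 times the CPM of E8.5 WT, and the log2 changes were 1.38 (0.66 to 2.33) and 1.10 (0.39 to 2.02). Compared with the younger stage, log2 changes were 0.48 for KO1 and 0.20 for KO2, with intervals that held 0 in both, so the difference beyond counting error was from the older WT library alone. With 20 to 45 reads, these values carry the widest intervals among the members past 1. Exons of Ddit3 overlap those of Mars, a methionyl-tRNA synthetase gene on the other strand, and counting was strand-specific. Mars was measured at 234 and 166 CPM in the WT libraries and at 118 and 131 in the KO libraries. Between E8.5 WT and the KO libraries Mars was thus lower where Ddit3 was higher, while between the WT stages both were lower in E8.5 WT.

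Trib3, on chromosome 2 (152337422 to 152344032, minus strand), encodes a pseudokinase that feeds back on ATF4. It had 84 and 31 reads in the WT libraries and 31 and 75 in the KO libraries, or 7.06, 2.52, 3.69 and 6.15 CPM. The KO libraries stood between the WT stages, KO1 near E8.5 WT and KO2 near E7.5 WT. KO1 had a log2 change of 0.52 (-0.22 to 1.32) and KO2 one of 1.23 (0.67 to 1.94) relative to E8.5 WT. KO2 exceeded KO1 by 0.71 (0.12 to 1.39), and it did not differ from E7.5 WT beyond counting error, with a log2 change of -0.19 (-0.67 to 0.27). Trib3 was also the only member whose WT libraries differed by more than 1, with E8.5 WT below E7.5 WT by a log2 change of -1.42.

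Asns, on chromosome 6 (7675169 to 7693254, minus strand), encodes asparagine synthetase. It was measured at 118 and 63.1 CPM in the WT libraries and at 74.9 and 84.2 in the KO libraries. As for Trib3, both KO libraries lay between the WT stages. They were higher than E8.5 WT, by 0.25 (0.09 to 0.40) in KO1 and 0.42 (0.28 to 0.55) in KO2, and lower than E7.5 WT, with log2 changes of -0.65 and -0.49. All 4 intervals left out 0, and so did that between KO1 and KO2, so each step in the order was larger than counting error.

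Phgdh and Psat1 encode the enzymes of the first and the second step of serine synthesis. Psat1, on chromosome 19 (15904678 to 15947337, minus strand), was measured at 347 and 276 CPM in the WT libraries and at 200.1 and 188 in the KO libraries. Both KO libraries were below both WT libraries. Relative to E8.5 WT, KO1 had a log2 change of -0.46 (-0.55 to -0.38) and KO2 one of -0.55 (-0.63 to -0.47), and they did not differ from each other beyond counting error. Psat1 was the member with the closest agreement between the KO libraries, a mean of -0.51 ± 0.06 (SD, n = 2). Phgdh, on chromosome 3 (98313170 to 98339990, minus strand), was at 279.6 and 163 CPM in the WT libraries and at 147 and 159 in the KO libraries. Here E7.5 WT stood apart and the other libraries lay close together. KO1 was lower than E8.5 WT by a log2 change of -0.15 (-0.25 to -0.05), while for KO2 the value was -0.035 with TMM and 0.018 with plain CPM, with an interval that held 0. From E7.5 WT, Phgdh differed by -0.93 and -0.81 in the KO libraries and Psat1 by -0.79 and -0.88, in log2 CPM.

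Chac1, on chromosome 2 (119351229 to 119354381, plus strand), encodes an enzyme that degrades glutathione. It had 20 reads in each WT library and 14 and 13 in the KO libraries, or 1.68, 1.63, 1.67 and 1.07 CPM. No pair of libraries differed beyond counting error, with log2 changes from E8.5 WT of 0.031 (-1.06 to 1.09) for KO1 and -0.54 (-1.74 to 0.47) for KO2. A difference of 1 in either direction lay within the interval for KO1, and for KO2 a difference of -1 did but not of 1. Slc7a11, on chromosome 3 (49892526 to 50443614, minus strand), encodes the cystine transporter that supplies glutathione synthesis. It had 3 and 9 reads in the WT libraries and 2 and 4 in the KO libraries. These are at or near the floor of 3 counts, no change was computed, and no pair of libraries differed beyond counting error.

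Sesn2 and Ddit4 encode inhibitors of the growth kinase complex mTORC1. Sesn2, on chromosome 4 (132492032 to 132510501, minus strand), was measured at 42.5 and 30.2 CPM in the WT libraries and at 38.5 and 48.3 in the KO libraries. E8.5 WT was the lowest and KO2 the highest. KO1 exceeded E8.5 WT by a log2 change of 0.35 (0.13 to 0.57) and KO2 by 0.67 (0.49 to 0.87), and KO1 did not differ from E7.5 WT beyond counting error. Ddit4, on chromosome 10 (59949669 to 59951834, minus strand), was at 71.8 and 77.3 CPM in the WT libraries and at 61.8 and 31.8 in the KO libraries. It was lower in both KO libraries than in either WT library, but by unequal amounts. KO1 differed from E8.5 WT by -0.32 (-0.48 to -0.17) and KO2 by -1.28 (-1.46 to -1.11) on the log2 scale, and the difference of KO2 from KO1 was -0.96 (-1.15 to -0.77). The mean of -0.80 ± 0.68 (SD, n = 2) had the largest spread between KO libraries of the 9 kept members, and leaving out KO1 puts Ddit4 past the threshold while leaving out KO2 does not. The inhibitors thus differed from E8.5 WT in opposite directions.

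**Figure D3:**
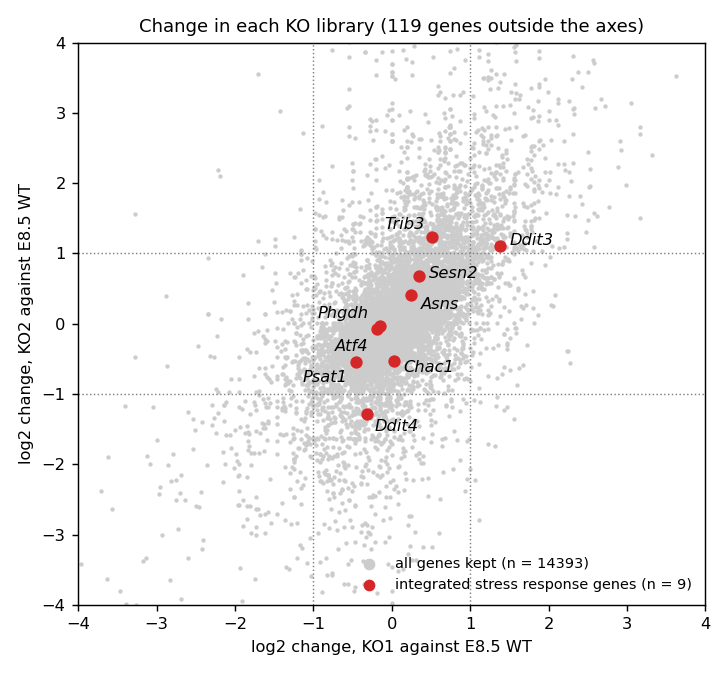
Log2 change against E8.5 WT in KO1 (horizontal) and KO2 (vertical) for the 14393 genes kept (grey) and the 9 kept members (red), with dotted lines at 1 and -1. Ddit3 alone lies past 1 on both axes at 1.38 and 1.10, and both axes share the E8.5 WT library.

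The second question was how the members compared with the younger WT stage, since KO embryos were delayed according to the study. Against E7.5 WT no member was past 1 in both KO libraries in either direction, where 6.91% of all genes kept were higher and 2.7% lower. KO1 had a median log2 change over the 9 members of -0.24 and KO2 one of -0.49. Their mean was -0.36 ± 0.18 (SD, n = 2), while the medians of all genes were 0.02 and 0.07. Counting intervals lay below 0 for 6 of the 9 kept members in KO1, beside 31.3% of all genes kept, and for 5 in KO2, beside 28.4%. These were Atf4, Asns, Psat1, Phgdh and Ddit4 in both and Trib3 in KO1. Above 0 lay only Sesn2 in KO2, with a log2 change of 0.18 (0.01 to 0.36), beside 35% of all genes. Intervals are narrow for abundant genes, so these shares depend on read number.

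Between the WT stages themselves, E8.5 WT was below E7.5 WT beyond counting error for 6 of the 9 kept members, namely Ddit3, Trib3, Asns, Psat1, Phgdh and Sesn2, and above it for none. Over all genes kept the shares were 33.4% below and 34.2% above. Of the 6 members, Trib3 was past the threshold, beside 7.82% of all genes kept that were lower and 12.2% that were higher in E8.5 WT. Asns and Ddit3 were both at -0.90, Phgdh at -0.78, Sesn2 at -0.49 and Psat1 at -0.33. The comparisons with either stage share the KO libraries. The sign differed between them for Asns and Trib3 in both KO libraries and for Sesn2 and Chac1 in KO1. Only for Asns did the intervals of both comparisons leave out 0. For Trib3 the interval held 0 in KO1 against E8.5 WT and in KO2 against E7.5 WT. For Sesn2 it held 0 in KO1 against E7.5 WT, and for Chac1 in KO1 against both stages.

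Both KO libraries were above both WT libraries for Ddit3 alone, where 18.4% of all genes kept were above. They were below both WT libraries for 4 of the 9 kept members, Atf4, Psat1, Phgdh and Ddit4, where 17.6% of all genes were below, and for 3 of them under plain CPM, which leaves out Phgdh. Between the KO libraries no member was past 1, where 5.99% of all genes were higher and 4.89% lower in KO2. By counting error KO2 exceeded KO1 for Atf4, Trib3, Asns, Phgdh and Sesn2, beside 21.8% of all genes, and was below it for Ddit4, beside 19%.

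The edgeR tests across all genes kept called no member, while DESeq2 called 2 against E7.5 WT. With edgeR's quasi-likelihood test and Benjamini-Hochberg adjustment over the 14393 genes kept, KO against E8.5 WT gave 0 genes (0%), with 1039 at an unadjusted p under 0.05, and DESeq2 called 34 genes and 0 members. Among the members Psat1 alone had an unadjusted p under 0.05 (0.013), and its adjusted p was 0.669. For Ddit3 the edgeR log2 fold change was 1.33 with an adjusted p of 0.669. Thus the 1 member past the fold threshold did not pass the test. The deleted gene Ddx6 did not pass it either, with an edgeR log2 fold change of -2.54 and an adjusted p of 0.193. Failing this test therefore does not show that a gene is unchanged. KO against E7.5 WT also gave 0 genes (0%) with edgeR, 3521 at an unadjusted p under 0.05, and 884 with DESeq2. Psat1, Phgdh and Asns had an unadjusted edgeR p under 0.05. The adjusted edgeR p was 0.129 for Psat1 and Phgdh, with log2 fold changes of -0.84 and -0.87, and lower in both of the KO libraries, while DESeq2 gave adjusted p values of 0.00065 and 0.000764 and called both. In these 2 tests the spread was estimated between KO1 and KO2, with 1 residual degree of freedom, and the lone WT library was assumed to vary like them. KO against both WT libraries as 1 group gave 0 genes (0%) with edgeR, 565 at an unadjusted p under 0.05 and 32 with DESeq2. Psat1 was the member with an unadjusted p under 0.05 there, with a log2 fold change of -0.68 and an adjusted p of 0.9, and DESeq2 called 0 members.

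Genes that act around ATF4 were described from lists compiled for this purpose. The list of eIF2 kinases, phosphatase subunits and eIF2 subunits had 9 of 9 genes kept and none past 1 in both KO libraries against either WT stage. Its median differences from E8.5 WT were -0.18 for KO1 and 0.06 for KO2. Eif2ak3, which encodes the endoplasmic reticulum kinase PERK, was at 28.6 and 31.3 CPM in the WT libraries and at 43.8 and 36.7 in the KO libraries. Eif2ak4, the amino acid sensor GCN2, was at 43.7, 47.9, 59.2 and 58.0 CPM in the same order. Both were above both WT libraries in both KO libraries, by 0.23 to 0.48 against E8.5 WT on the log2 scale. They were 2 of the 9 genes of this list, beside 18.4% of all genes kept. Another 3 of the 9 were below both WT libraries in both KO libraries, beside 17.6% of all genes kept. Eif2ak1, the heme-regulated kinase, was at 79.0, 66.2, 58.5 and 68.9 CPM, and Eif2ak2, the double-stranded RNA kinase PKR, at 12.2, 19.9, 19.5 and 25.5 CPM. For neither did the KO libraries lie on 1 side of both WT libraries. The 5 subunits of eIF2B, the exchange factor that phosphorylated eIF2 blocks, had no gene past 1, with medians of -0.095 and 0.053 relative to E8.5 WT.

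Among 8 other transcription factors of the response, 6 were kept and none was past 1 against E8.5 WT in both KO libraries. Jdp2, a basic leucine zipper repressor, was higher than E7.5 WT in both, at 13.7 and 10.4 CPM against 3.19, with 9.68 CPM in E8.5 WT. The list medians were 0.44 and 0.28 against E8.5 WT. Both KO libraries were above both WT libraries for 2 of the 6, Atf5 and Jdp2, and below both for none. Over all genes kept, 18.4% were above. Atf5 was at 40.3 and 32.8 CPM in the WT libraries and at 73.2 and 52.6 in the KO libraries. Its log2 changes from E8.5 WT were 1.15 for KO1 and 0.68 for KO2, and it was named here after its values were seen. Of the 15 further ATF4 targets in amino acid synthesis and transport, all were kept, none was past 1 in both KO libraries against E8.5 WT and Slc3a2 was lower in both against E7.5 WT. Slc7a3, a cationic amino acid transporter named here after its values were seen, was at 49.4 and 23.4 CPM in the WT libraries and at 18.9 and 80.01 in the KO libraries, with KO1 the lowest and KO2 the highest. Slc3a2, the heavy chain shared by several amino acid transporters, was at 314 and 157 CPM in the WT libraries and at 137 and 149 in the KO libraries. It thus followed Phgdh in having E7.5 WT apart from the other libraries. This list had medians of -0.23 and -0.08 relative to the older stage and of -0.31 and -0.36 relative to the younger.

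Of 8 secreted and signaling targets, 6 were kept. Vldlr, a lipoprotein receptor, was at 17.7 and 42.4 CPM in the WT libraries and at 13.3 and 15.8 in the KO libraries, and so was lower than E8.5 WT by log2 changes of -1.66 and -1.42. Stc2, a secreted glycoprotein, was at 24.6, 18.1, 8.57 and 11.1 CPM and was lower than E7.5 WT by -1.5 and -1.14. Neither passed the edgeR test, which called no gene against either stage. The 13 genes of the aminoacyl-tRNA synthetase list, which includes the tRNA exporter Xpot, had none past 1 in both KO libraries against either stage. They had medians of -0.30 and -0.11 relative to the older stage and of -0.69 and -0.39 relative to the younger. In 9 of the 13 both KO libraries were below both WT libraries, where 17.6% of all genes were. All 3 further lists of ATF4 targets thus had medians below 0 in both KO libraries against both stages.

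**Figure D4:**
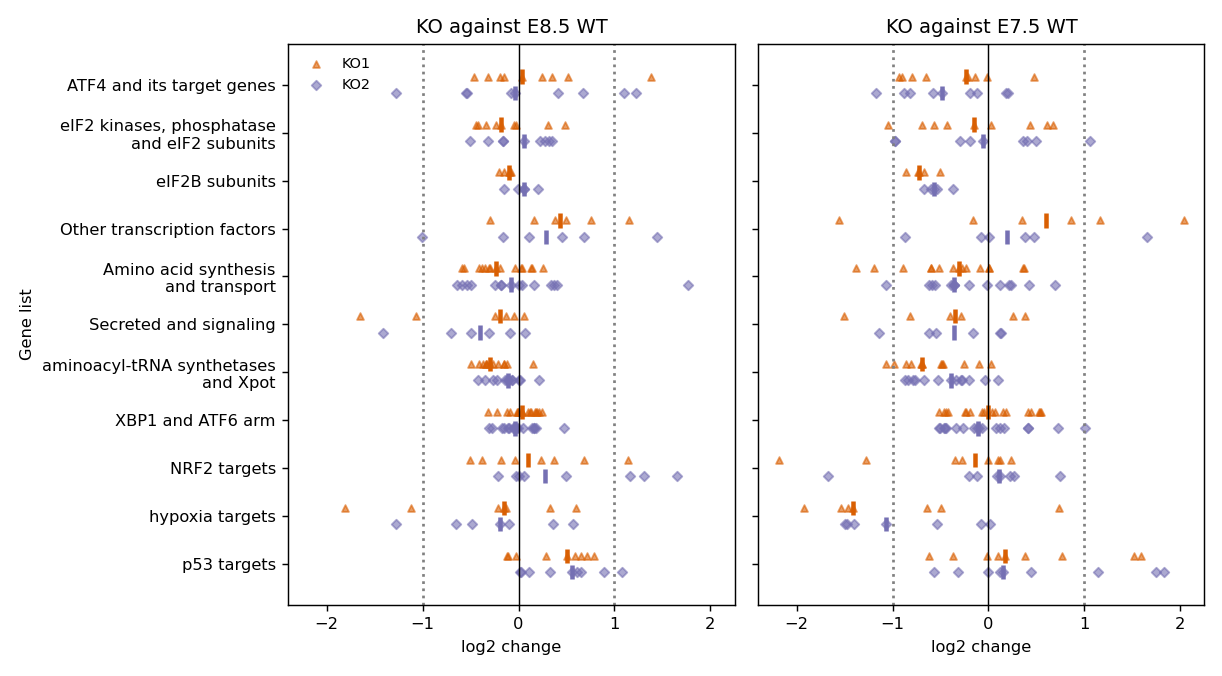
Log2 change of each kept gene of the lists (points) and the list median (vertical bar) in KO1 (triangles) and KO2 (diamonds), against E8.5 WT on the left and E7.5 WT on the right. The median of ATF4 and its targets lies at 0.031 and -0.035 on the left and at -0.24 and -0.49 on the right.

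Other stress pathways share genes or inducers with the response. In the XBP1 and ATF6 arm of the unfolded protein response, 18 of 18 genes were kept, none was past 1 in both KO libraries against either stage, and the medians against E8.5 WT were 0.035 and -0.036. Among 8 NRF2 targets, Srxn1, a sulfiredoxin, was higher than E8.5 WT in both KO libraries, by log2 changes of 1.14 and 1.65. Osgin1 was lower than E7.5 WT, with 1 and 3 reads against 14, but E8.5 WT also had only 3. Among 8 hypoxia targets, of which 7 were kept, Pdk1, a kinase that limits entry of pyruvate into mitochondria, was lower than both stages, at 23.2 and 33.6 CPM against 88.8 and 81.9 in the WT libraries. Bnip3, Ankrd37 and Ndrg1 were lower than E7.5 WT by -1.07 to -1.54. Against E8.5 WT the members of this list went both ways, with Ndrg1 at 0.60 and 0.57. Ddit4 is known as a hypoxia target as well. Among 9 p53 targets, Trp53inp1 and Eda2r were higher than E7.5 WT by 1.52 to 1.83, where Eda2r had 11 reads in that WT library. Eda2r did not differ from E8.5 WT beyond counting error in either KO library. The list medians for KO1 and KO2 were 0.51 and 0.56 relative to the older stage, but 0.18 and 0.15 relative to the younger. Sesn2 is itself known as a p53 target.

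Markers of several cell types differed between the libraries as well. The 5 kept of 6 trophoblast giant cell markers summed to 246 and 199.6 CPM in the WT libraries and to 450.2 and 866 in the KO libraries, with Prl3b1 at 0 in every library and Prl7d1 at 0 in all but KO2. In KO1, 422 CPM of this sum was Hand1, which embryonic mesoderm also expresses, and Plac1 stood at 27.4 CPM against 27.2 and 18.1 in the WT libraries. KO2 held 341 CPM of Prl3d1 and KO1 0.36. The 5 decidual markers summed to 179, 58.9, 99.0 and 172 CPM. Of these sums Hand2 made up 42.4, 44.4, 73.6 and 41.6 CPM in the same order, most of the sum in E8.5 WT and KO1. The tissue that the Hand2 reads came from was not tested. Among the decidual markers Prl8a2 was at 111 CPM in E7.5 WT and 118 in KO2 against 2.12 in E8.5 WT and 7.62 in KO1. The others did not follow it, since Igfbp1 was at 10.2 CPM in E7.5 WT and 2.54 in KO2, and Cryab at 14.97 and 8.86. Visceral endoderm markers, 6 of 6 kept, summed to 4280 and 4869 CPM in the WT libraries and to 2490 and 2368 in the KO libraries. Of this sum Apob made up 1733, 3110, 1682 and 1521 CPM in the same order. Both KO libraries were below both WT libraries for 5 of the 6, beside 17.6% of all genes kept. Amn was the exception, at 275 and 129 CPM in the WT libraries and at 113 and 147 in the KO libraries. Primitive erythroid markers summed to 20.2, 241, 1.79 and 1.56 CPM in the same order of libraries, with Hbb-y at 0 in all but E8.5 WT. The 4 epiblast and primitive streak markers stood at 760 CPM in E7.5 WT and 726 in KO2 against 139 in E8.5 WT and 216 in KO1. The 5 neural and somitic markers stood at 240.03 CPM in E8.5 WT and 222 in KO1 against 11.6 and 13.0 in E7.5 WT and KO2. Most of the KO1 sum was Aldh1a2, at 165 CPM against 140 in E8.5 WT. Sox1, Pax6 and Tcf15 were lower in KO1, at 21.2, 3.69 and 4.41 CPM against 43.4, 14.6 and 10.1 in E8.5 WT. Meox1 was at 27.98 CPM in KO1 and 31.7 in E8.5 WT. Of single epiblast markers, E7.5 WT and KO2 were close for Pou5f1, at 319 and 335 CPM, but not for T, at 325 and 122, nor for Eomes, at 112 and 257. The part of these cell types in any member's level was not tested, and in whole embryos fewer cells of a type and less RNA per cell cannot be told apart. According to the study, embryos were genotyped from extraembryonic tissue or yolk sac. How much of such tissue each library held is not stated, so its share cannot be told apart from these either.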

How the data were processed

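Libraries were made from Trizol RNA of whole embryos with a stranded mRNA kit. The deposited values are raw read counts by gene, not normalized by the authors. Per the labels and the methods, reads were trimmed with cutadapt 2.8, checked with FastQC 0.11.7, aligned to mm10 with HISAT2 2.1.0, handled with SAMtools 1.9 and counted strand-specifically with featureCounts 2.0.0. Counts were normalized here by TMM on the full table in edgeR 4.0.16 (R 4.3.3), and a gene was kept if any library (at least 1) held 10 or more counts of it. Log2 CPM used a prior count of 2. Calls needed a log2 change past 1, in both KO libraries where KO was compared, and carry no p. Ratios are of CPM without the prior count. RPKM used GENCODE exon lengths on GRCm38, which 24051 of 24421 symbols matched. Counting intervals (Clopper-Pearson, 95%) and the floor of 3 counts cover counting error only.

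Two-sided edgeR quasi-likelihood tests with Benjamini-Hochberg adjustment over all genes kept used a threshold of 0.05. DESeq2 1.42.0, other scalings, filters, prior counts and thresholds, and leaving out each KO library were alternatives. The edgeR step was tested on simulated data, and no error rate or power is given here from that. Nothing in the labels says that the KO replicates were separate litters, so p-values measure the spread between these samples. The text names the members, Ddx6, the eIF2 kinases, genes of the lists past 1 in both KO libraries, cell type markers, and Mars for its overlap with Ddit3. Atf5 and Slc7a3 were named after their values were seen. Members and lists were chosen with earlier results of these data known.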

Additional observations from a re-analysis of the deposited data

How the results depend on the processing

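All values rest on 1 library per WT stage and 2 KO libraries, so variation between WT embryos was not measured. Ddit3, Trib3 and Chac1 had 13 to 84 reads per library, where counting error is wide. Of the alternatives run, 91 results over all genes or all members and 86 single-gene values stayed close to the reported ones and 26 moved. Many of the 91 were counts of 0 that stayed at 0. A single-gene value was taken as close if it moved by less than the SD between KO1 and KO2, which was 0.68 for Ddit4. Single-gene values were not recomputed without a KO library, so closeness was a weak check for them. No called value changed sign. Of values near 0, the mean change of Sesn2 from E7.5 WT went from 0.021 to -0.013 with DESeq2 size factors, and the members' median from E8.5 WT changed sign with plain CPM and without KO2 (0.031).

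DESeq2 called 34 genes for the older stage, 884 for the younger, of which 2 were members (Psat1 and Phgdh), and 32 against both WT libraries. With no filter on counts edgeR called 7 and 751 in turn, the latter with the same 2 members, and Slc7a11 (9 reads against 3) became the 1 member higher in E8.5 WT than in E7.5 WT. Leaving out a KO library gave 1 to 51 genes against both WT libraries, 51 without KO1; against a single WT library it left no residual degrees of freedom and no test. A count minimum of 50 dropped Ddit3, which left 0 members higher than E8.5 WT and 0 above both WT libraries. A threshold of 2 left 0 members higher than E8.5 WT and 0 between the stages. A threshold of 0.5 gave 2 members higher than E8.5 WT (Ddit3, Trib3), 2 lower than E7.5 WT (Psat1, Phgdh), 4 lower in E8.5 WT than in E7.5 WT, 1 higher in KO2 than in KO1 (Trib3) and 2 lower (Ddit4, Chac1). Over all genes kept, the median absolute log2 change between the WT stages was 0.47, close to this threshold. Leaving out KO1 or KO2 gave 1 to 2 members higher than E8.5 WT, 0 to 1 lower than E8.5 WT, 0 to 1 lower than E7.5 WT, 1 to 2 above both WT libraries and 4 to 5 below, the larger number each time without KO1, through Trib3, Ddit4, Sesn2 and Chac1. Shares of all genes kept are not given for these thresholds and omissions. The counts therefore describe how the calls depend on the settings, and do not set the members apart from other genes. The median change of the members against E8.5 WT was 0.055 with plain CPM, -0.056 with no filter and -0.092 with a minimum of 50. No paired analysis was possible because the WT groups have 1 library each.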
